A study of Mus musculus with 6 samples.

Results

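Amino acid and neurotransmitter transporters were examined in the spinal cord of mice that lack Dhtkd1. The set was drawn from the array by gene name and not by any measured value. It takes every probe whose gene symbol begins with Slc1a, Slc3a, Slc6a, Slc7a, Slc36a, Slc38a or Slc43a, with 1 symbol left out. The rule found 61 genes with 108 probes, out of 27343 gene names with 41174 probes on the array. It also took in Slc7a6os, whose product is not a transporter and whose name only begins like those of the family. Of the 61 genes, 54 were tested, each through a probe that stood well above background on 3 or more of the 6 arrays, and those genes had 90 such probes.

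Total RNA of whole spinal cord came from 3 Dhtkd1 null and 3 wild-type samples, all from C57BL/6 males aged 8 weeks. Each sample was hybridised alone, with 1 dye, to 1 Agilent whole mouse genome array. The labels do not give the deleted part of Dhtkd1, nor whether each replicate was 1 animal, so the p-values measure the spread between these samples as labelled. Dhtkd1 encodes a mitochondrial enzyme subunit that acts late in the breakdown of lysine.

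The signal of a probe is its log2 processed intensity relative to the 75th percentile of its array, so that 0 is the level of that percentile. A difference is the mean of the null samples minus that of the wild-type samples on the log2 scale. Because probes bind with different strength, signals were compared between samples and never between genes. The percentile lay at 958 to 1032 intensity units on the null arrays and at 918 to 985 on the wild-type arrays, and the share of spots well above background was 78.4% to 82.0%. All 6 neuron, 8 astrocyte and 7 oligodendrocyte markers examined were well above background on all 6 arrays. Dhtkd1 itself gave -4.02, -4.01 and -4.13 in null samples, against -2.87, -2.98 and -3.05 in wild-type samples at its probe on chromosome 2, positions 5817910 to 5817969 (mm9), a difference of -1.08 (limma on single probes, unadjusted p 1.2e-05, adjusted p 0.0862). At positions 5825028 to 5825087, the probe that stands for the gene by the rule used here, it gave -4.30, -3.39 and -3.99 in null samples, against -2.42, -3.12 and -2.92 in wild-type samples. That difference was -1.07 (limma on single probes, unadjusted p 0.00924, adjusted p 0.511). In the limma fit over genes the adjusted p of Dhtkd1 was 0.453. Both probes had null samples below all wild-type samples. All 3 null arrays and wild-type replicate 2 lay on 1 slide, with wild-type replicates 1 and 3 on the other. For this reason a difference with slide as a block is given beside the results for single transporters with values in every sample, except those that varied most within a genotype. It equals the difference within the first slide, since the second slide holds wild-type samples alone.

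These transporters sit in the plasma membrane, and in a few cases in lysosomes or vesicles, and carry amino acids or transmitters made from them. In the spinal cord, uptake by astrocytes and nerve endings ends the action of glutamate, GABA and glycine, the main fast transmitters of the cord. Glutamine carriers of the Slc38 family then pass carbon and nitrogen back from astrocytes to neurons. The Slc7 family supplies cells with basic and large neutral amino acids, many of its members only when paired with a heavy chain of the Slc3 family.

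No transporter gene passed an adjusted p of 0.05. The lowest adjusted p among the 54 was 0.420 (limma, adjusted over 21438 genes), and no gene of the array passed (0% called). At an unadjusted p under 0.05, 3 transporters were higher in null samples (5.56%, against 5.76% of all genes tested) and 2 were lower (3.70%, against 3.25% of all genes). Both shares were close to those of the array as a whole. The 3 null samples lay above all 3 wild-type samples for 3 transporters (5.56%, against 9.19% of all genes). They lay below all wild-type samples for 4 (7.41%, against 5.63% of all genes). For such genes the exact 2-sided permutation test of 3 against 3 samples gives its smallest possible p, 0.1. The counts at an unadjusted p under 0.05 rested on single samples. Without null replicate 1 they were 6 higher and 1 lower. Without null replicate 3 they were 1 and 1, and without null replicate 2 or wild-type replicate 3 the lower count was 1. With slide as a block both counts were 1.

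Differences were small across the set. In the null samples 31 genes were on the higher and 23 on the lower side, and the median difference was 0.03, beside 0.02 over all genes tested. The difference was under 0.3 in size for 43 of the 54 genes (79.6%, against 82.0% of all genes). Its 95% interval lay within 0.5 on either side of zero for 28 (51.9%, against 59.8% of all genes). Single differences ran from -0.55 for Slc7a11 to 0.88 for Slc6a4.

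**Figure D1:**
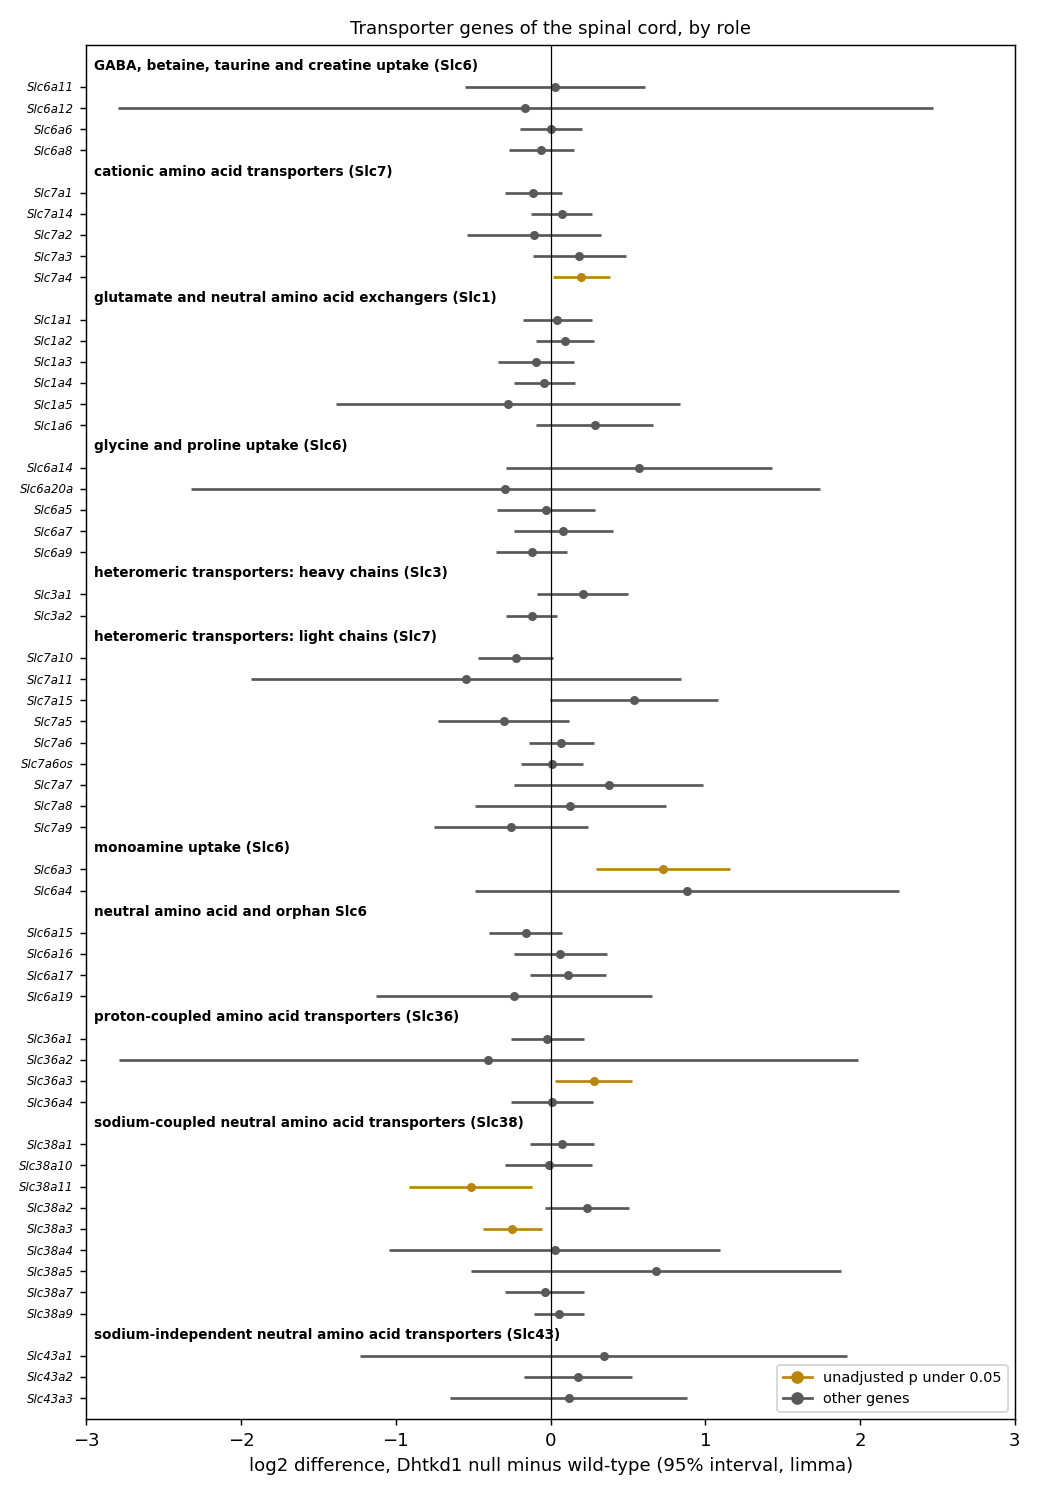
Log2 difference of Dhtkd1 null minus wild-type for 53 of the 54 tested genes, grouped by role, with the limma 95% interval as a bar (3 samples in each group). The 5 genes at an unadjusted p under 0.05 are in gold, and the widest intervals belong to Slc6a12, Slc36a2 and Slc6a20a.

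The Slc1 family, which holds glutamate transporters and neutral amino acid exchangers, was measured at 6 of its 7 genes. Of these, 3 were on the higher and 3 on the lower side, and the median difference was 0.00. Slc1a2, the main glutamate transporter of astrocytes, gave 5.74, 5.64 and 5.57 in null samples, against 5.55, 5.62 and 5.50 in wild-type samples. The groups overlapped, with a difference of 0.09 (SE 0.08, limma, p 0.273, 95% interval -0.10 to 0.28), and 0.03 with slide as a block. Its 4 probes were all on the higher side in null samples, by 0.09 to 0.26, and none of them reached an unadjusted p of 0.05.

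Slc1a3, the other glutamate transporter of astrocytes, gave 1.38, 1.29 and 1.19 in null samples, against 1.35, 1.26 and 1.53 in wild-type samples, a difference of -0.09 (SE 0.10, limma, p 0.387). Its difference was 0.03 with slide as a block. Wild-type replicate 3 held the highest value and null replicate 3 the lowest. Slc1a1, the glutamate and cysteine transporter of neurons, gave 2.43, 2.37 and 2.33 in null samples, against 2.42, 2.40 and 2.17 in wild-type samples, a difference of 0.04 (SE 0.09, limma, p 0.649). Wild-type replicate 3 was lowest, and the other values lay close together. Its blocked difference was -0.02.

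The other Slc1 genes differed as little or varied more within a group. Slc1a6, a glutamate transporter best known from Purkinje cells, had a difference of 0.28 (95% interval -0.10 to 0.66). Slc1a4, which exchanges serine and alanine, was at -0.04, and Slc1a5, an exchanger of glutamine, at -0.28. The interval of Slc1a5 reached from -1.39 to 0.84. Slc1a7, known from the retina, was well above background on no array.

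Slc6a11, the GABA transporter of astrocytes, gave 2.14, 1.83 and 1.78 in null samples, against 2.08, 2.20 and 1.39 in wild-type samples, a difference of 0.03 (SE 0.24, limma, p 0.914). Wild-type replicate 3 was the lowest and wild-type replicate 2 the highest of the 6, and the difference was -0.28 with slide as a block. The taurine transporter Slc6a6 was at 0.00 and the creatine transporter Slc6a8 at -0.06. Slc6a12, which carries betaine and GABA, was at -0.16 with an interval of -2.79 to 2.47.

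Glycine uptake is of special weight in the cord, where glycine is a main inhibitory transmitter. Slc6a5, which refills the endings of glycine neurons, gave 2.80, 2.79 and 2.74 in null samples, against 3.00, 2.88 and 2.54 in wild-type samples. Null samples lay inside the wild-type range, with a difference of -0.03 (SE 0.13, limma, p 0.830), and -0.10 with slide as a block. Slc6a9, the glycine transporter of glia, gave 6.49, 6.35 and 6.27 in null samples, against 6.38, 6.54 and 6.56 in wild-type samples. Its groups overlapped as well, with a difference of -0.12 (SE 0.09, limma, p 0.239, 95% interval -0.35 to 0.11), and -0.17 with slide as a block.

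The remaining genes of glycine and proline uptake also fell short of an unadjusted p of 0.05. Slc6a7, a proline transporter of excitatory nerve endings, was at 0.08. Slc6a20a, which carries proline and related imino acids, was at -0.29 with an interval of -2.33 to 1.74. Slc6a14, a transporter of neutral and basic amino acids, was at 0.57 with an interval of -0.29 to 1.43. Slc6a20b was well above background on no array, and Slc6a18 on 2 of 6 at 1 of its 3 probes.

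**Figure D2:**
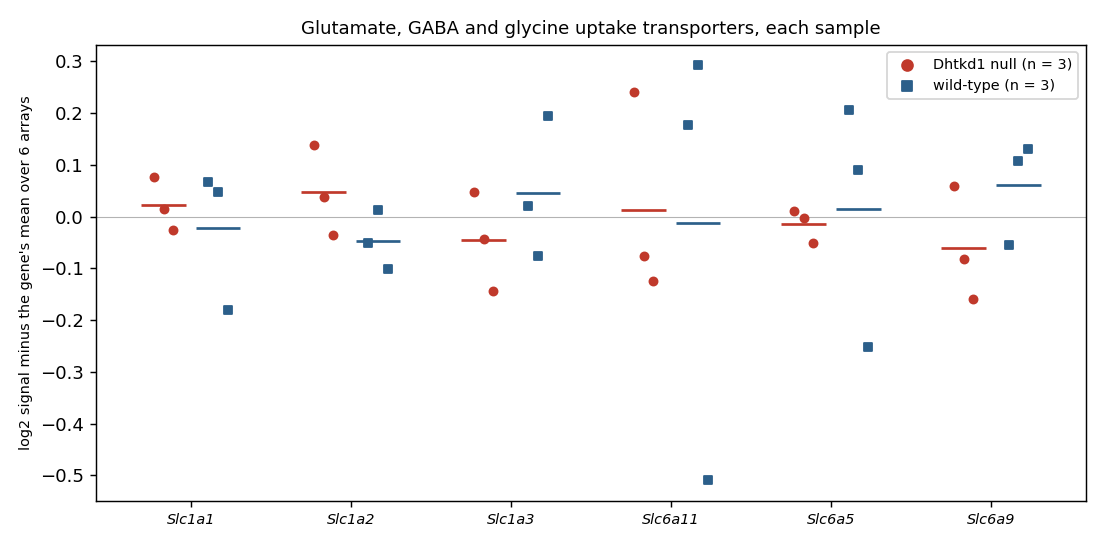
Log2 signal of 6 glutamate, GABA and glycine transporters in each sample, relative to the mean of that gene over the 6 arrays; bars are group means (3 Dhtkd1 null, 3 wild-type). The groups overlap for all 6, and the widest spread is that of Slc6a11 in wild-type samples.

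The lowest unadjusted p of the set was that of Slc6a3, the dopamine transporter. It gave -4.51, -4.40 and -4.86 in null samples, against -5.60, -5.13 and -5.22 in wild-type samples. All 3 null samples lay above all wild-type samples, by a group mean of 0.73 (1.65-fold, SE 0.18, limma, unadjusted p 0.00656, adjusted p 0.420). The signal was weak, at 20.3 to 45.4 intensity units, though well above background on all 6 arrays. With slide as a block the difference was 0.54 (p 0.0807), and with another background correction, normexp, it was 0.14 (p 0.121).

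Slc6a4, the serotonin transporter, gave -5.64, -3.54 and -4.46 in null samples, against -5.06, -5.94 and -5.29 in wild-type samples, a difference of 0.88 (SE 0.55, limma, p 0.164), and 1.39 (p 0.145) with slide as a block. Null replicates 2 and 3 were above all wild-type samples, and null replicate 1 was below wild-type replicates 1 and 3. Both transporters are made chiefly in brain and brainstem neurons whose cell bodies lie outside the cord. Slc6a2, the noradrenaline transporter, was well above background on no array.

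Genes that make or break down monoamines were not called. Of 7 tested, 4 were on the higher and 3 on the lower side in null samples, none at an unadjusted p under 0.05. The smallest p were those of Maoa, a mitochondrial monoamine oxidase, at -0.16 (limma, p 0.0573), and of Dbh, which makes noradrenaline, at 0.47 (p 0.101). With slide as a block Maoa was at -0.21 and Dbh at 0.03. Dbh was well above background on 3 null and 2 wild-type arrays.

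The Slc38 family, sodium-coupled carriers of glutamine and other small neutral amino acids, held both of the transporters that were lower at an unadjusted p under 0.05. Slc38a11, a member with no well-known role, gave -2.93, -3.02 and -2.97 in null samples, against -2.66, -2.10 and -2.61 in wild-type samples. All null samples lay below all wild-type samples, with a difference of -0.52 (1.43-fold lower, SE 0.16, limma, unadjusted p 0.0193, adjusted p 0.501). Wild-type replicate 2 stood highest, and without it the difference was -0.34 (p 0.00709). Within the first slide, where that replicate is the only wild-type sample, the difference was -0.87.

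That probe lies on chromosome 2, positions 65187580 to 65187639 (mm9). The second Slc38a11 probe is shown because its 60 bases lie 3705 bases apart from end to end in mm9, as a probe that reads across a splice junction does. It lies on chr2:65188116-65191820, minus strand, 5′ to 3′ as the array design gives it:
Slc38a11 probe: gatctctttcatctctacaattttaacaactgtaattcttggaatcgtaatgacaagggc
At this probe the null samples gave -4.54, -4.52 and -4.65, against -4.23, -4.35 and -4.22 in wild-type samples. The groups again did not overlap, with a difference of -0.30 (SE 0.08, limma on single probes, unadjusted p 0.00926, adjusted p 0.511). Wild-type replicate 2 was the lowest of the wild-type samples here and the highest at the other probe.

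Slc38a3, which passes glutamine across the membrane of astrocytes in either direction, gave 1.15, 1.26 and 1.08 in null samples, against 1.39, 1.38 and 1.47 in wild-type samples. All null samples lay below all wild-type samples, with a difference of -0.25 (1.19-fold lower, SE 0.08, limma, unadjusted p 0.0193, adjusted p 0.501). Blocking by slide gave -0.21 (p 0.126). Of 8 astrocyte markers, all well above background on every array, 3 were on the higher and 5 on the lower side in null samples, none at an unadjusted p under 0.05. Aqp4, the water channel of astrocytes, was below all wild-type samples in every null sample (-0.33, p 0.0502), and Aldoc, an aldolase, was above them (0.11, p 0.173). The mean of the 8, relative to each gene's mean over all arrays, was 0.09, -0.09 and -0.16 in null samples, against -0.06, 0.25 and -0.03 in wild-type samples. Their part in the result was not tested. In whole tissue, fewer cells of a type and less RNA per cell cannot be told apart.

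Slc38a2, a glutamine carrier known to be induced when cells lack amino acids, was chosen for a full account after its values were seen. It gave 3.98, 3.94 and 4.07 in null samples, against 3.59, 3.75 and 3.95 in wild-type samples, a difference of 0.24 (SE 0.11, limma, p 0.0768, 95% interval -0.03 to 0.51), and 0.25 (p 0.202) with slide as a block. Wild-type replicate 3 reached into the null range. All 4 of its probes were on the higher side in null samples, by 0.24 to 0.35, and at the one on chromosome 15, positions 96528513 to 96528572 (mm9), the groups did not overlap.

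Promoters are shown for Slc38a11, the one gene at an unadjusted p under 0.05 at 2 probes, and for Slc38a2, a gene of the same family whose 4 probes lay to the other side. Both were chosen after their values were seen. They are the 250 bases before the RefSeq start on GRCm38.p6, minus strand, at chr2:65364027-65364276 and chr15:96699729-96699978. Capitals mark a TATA box core (TATAA) or a GC box (GGGCGG), on either strand.
Slc38a11: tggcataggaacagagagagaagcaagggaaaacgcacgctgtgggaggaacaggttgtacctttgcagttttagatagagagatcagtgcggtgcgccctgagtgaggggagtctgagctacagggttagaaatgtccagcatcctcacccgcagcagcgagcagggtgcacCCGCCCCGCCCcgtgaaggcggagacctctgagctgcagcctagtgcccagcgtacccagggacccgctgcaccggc
Slc38a2: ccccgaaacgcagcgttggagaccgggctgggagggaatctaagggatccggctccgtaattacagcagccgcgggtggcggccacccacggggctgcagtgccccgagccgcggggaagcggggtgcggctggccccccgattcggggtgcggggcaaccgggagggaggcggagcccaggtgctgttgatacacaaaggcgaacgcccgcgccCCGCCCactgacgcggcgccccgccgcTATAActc
The Slc38a11 window held 2 GC boxes on the reverse strand, which overlap by a single base, and no TATA box core. The Slc38a2 window held 1 TATA box core and 1 GC box on the reverse strand. Over 32851 windows of the same length, 22.8% held a TATA box core and 32.7% a GC box. The composite site of amino acid response genes, TGATGNAA, was found in neither window and in 3.45% of all windows. The windows hold no transcribed bases, so the search could not find a site past the start of either gene.

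The other Slc38 genes had small differences or wide intervals. Slc38a1, a glutamine carrier of neurons, was at 0.07. Of the lysosomal members, Slc38a9, a sensor of arginine, was at 0.06 and Slc38a7, which exports glutamine, at -0.04. Slc38a10 was at -0.01, and Slc38a4, well above background on 4 of 6 arrays, at 0.03. Slc38a5, a glutamine carrier related to Slc38a3, was at 0.68 with an interval of -0.51 to 1.88. Slc38a8 was well above background on no array.

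**Figure D3:**
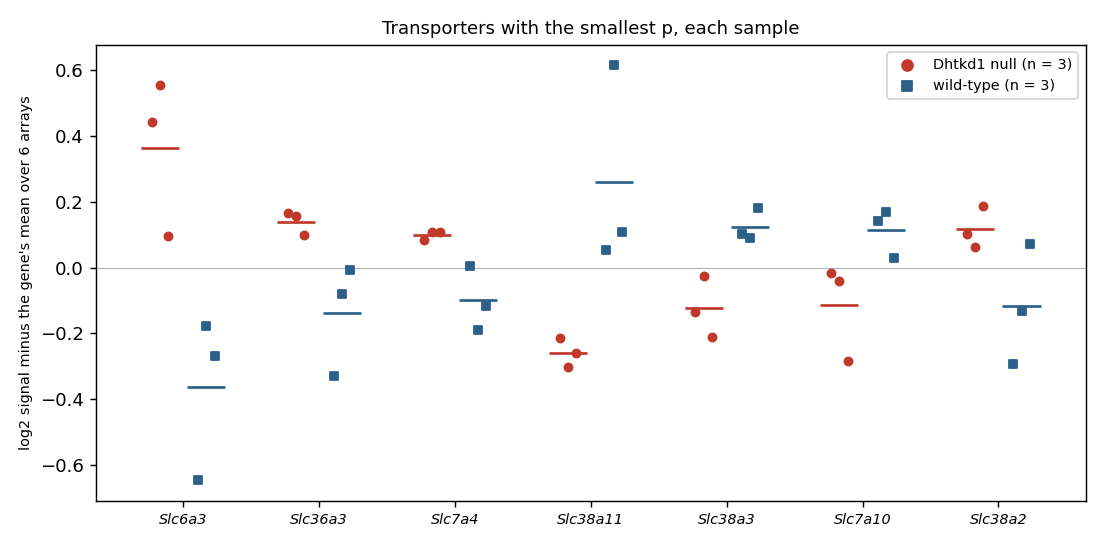
Log2 signal in each sample relative to the mean of that gene over the 6 arrays, for the 5 transporters at an unadjusted p under 0.05 and for Slc7a10 and Slc38a2; bars are group means (3 Dhtkd1 null, 3 wild-type). Slc6a3, Slc36a3 and Slc7a4 lie higher in null samples, Slc38a11, Slc38a3 and Slc7a10 lower, and the groups overlap for Slc38a2.

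Carriers of basic amino acids, which bring lysine into cells, were measured at 5 genes of the Slc7 family, 3 on the higher and 2 on the lower side. Slc7a4, a member of this branch whose substrate is not settled, gave -0.58, -0.56 and -0.55 in null samples, against -0.66, -0.85 and -0.78 in wild-type samples. The null samples lay close together and above all wild-type samples, with a difference of 0.20 (1.15-fold, SE 0.08, limma, unadjusted p 0.0394, adjusted p 0.535). Blocking by slide gave 0.29 (p 0.0345). The lysine and arginine carriers themselves were at -0.11 for Slc7a1, -0.11 for Slc7a2 and 0.19 for Slc7a3, and the related lysosomal protein Slc7a14 was at 0.07. None of those 4 reached an unadjusted p of 0.05. A second Slc7a1 probe was at 0.26 (limma on single probes, p 0.246), so the probes of this gene disagreed in sign.

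Both heavy chains of the paired transporters were measured. Slc3a2, the partner of most light chains in brain and cord, gave 3.80, 3.89 and 3.76 in null samples, against 3.94, 3.94 and 3.94 in wild-type samples. The groups did not overlap, with a difference of -0.12 (SE 0.07, limma, p 0.117), and -0.13 with slide as a block. A second Slc3a2 probe was at 0.03, so the probes of this gene disagreed in sign. Slc3a1, the heavy chain known from kidney, was at 0.21 (95% interval -0.09 to 0.50).

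Of the light chains, counted together with Slc7a6os, 5 were on the higher and 4 on the lower side, none at an unadjusted p under 0.05. Slc7a5, which carries large neutral amino acids such as leucine and tryptophan across the blood-brain barrier, gave -0.50, -0.70 and -0.88 in null samples, against -0.22, -0.71 and -0.24 in wild-type samples. The difference was -0.30 (SE 0.17, limma, p 0.129). Wild-type replicate 2, which shares the slide of the null samples, lay among them, and with slide as a block the difference was 0.02 (p 0.921).

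Slc7a11, the cystine and glutamate exchanger, gave -3.68, -3.12 and -2.23 in null samples, against -3.09, -2.89 and -1.42 in wild-type samples. The groups overlapped over a wide range, with a difference of -0.55 (SE 0.56, limma, p 0.372), and with slide as a block it was -0.12. Its 4 probes were all on the lower side in null samples, by -0.71 to -0.54.

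Slc7a10, which exchanges glycine and D-serine in astrocytes and neurons, was chosen for a full account after its values were seen. It gave 3.40, 3.38 and 3.13 in null samples, against 3.56, 3.59 and 3.45 in wild-type samples. All null samples lay below all wild-type samples, with a difference of -0.23 (SE 0.10, limma, p 0.0630, adjusted p 0.569), and without null replicate 3 it was -0.14 (p 0.181). Blocking by slide gave -0.28 (p 0.115). Of the rest, Slc7a7 was at 0.37 and Slc7a6 at 0.07, both exchangers of basic for neutral amino acids. Slc7a8, a carrier of neutral amino acids, was at 0.13, and Slc7a9, the cystine carrier of kidney, at -0.26, well above background on 4 of 6 arrays. Slc7a15 was at 0.54 (limma, p 0.0508), and at 0.23 with slide as a block. Its signal was weak, at 19.7 to 50.5 intensity units. Slc7a6os, which is no transporter, was at 0.01. Slc7a12 and Slc7a13 were well above background on no array.

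Some members of the Slc36 family are proton-coupled carriers of glycine, proline and alanine. Slc36a3 gave -6.14, -6.15 and -6.21 in null samples, against -6.64, -6.39 and -6.32 in wild-type samples. The groups did not overlap, with a difference of 0.28 (1.21-fold, SE 0.10, limma, unadjusted p 0.0346, adjusted p 0.530). At 9.87 to 14.6 intensity units its signal was weak. The difference was 0.22 (p 0.207) with slide as a block, 0.16 (p 0.325) after quantile normalization and 0.02 (p 0.729) after normexp background correction. Slc36a1, also known from lysosomes, was at -0.02, Slc36a4 at 0.01, and Slc36a2 was at -0.40 with an interval of -2.79 to 1.99.

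Neutral amino acid and orphan members of Slc6 were 2 on the higher and 2 on the lower side. Slc6a15, which takes up branched-chain amino acids in neurons, was at -0.16, and Slc6a17, a carrier of synaptic vesicles, at 0.11. The orphan Slc6a16 was at 0.06. Slc6a19, the neutral amino acid carrier of gut and kidney, was at -0.24 and well above background on 4 of 6 arrays. All 3 Slc43 genes were on the higher side in null samples at the probe that stands for the gene. Slc43a1 and Slc43a2, carriers of large neutral amino acids, were at 0.34 and 0.18, and Slc43a3, a purine base carrier, at 0.12. A second Slc43a2 probe was at -0.13 (p 0.121), with all null samples below all wild-type samples, so the probes of this gene disagreed in sign.

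Of 23 genes with more than 1 kept probe, 13 had all probes on one side and 10 did not. Among the 90 kept probes, 4 were higher (background 5.35% of all probes kept) and 3 lower (background 2.84%) in null samples at an unadjusted p under 0.05, and none passed after adjustment (lowest adjusted p 0.480, limma over 33190 probes). Slc38a11 was the one gene with such a result at 2 probes.

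**Figure D4:**
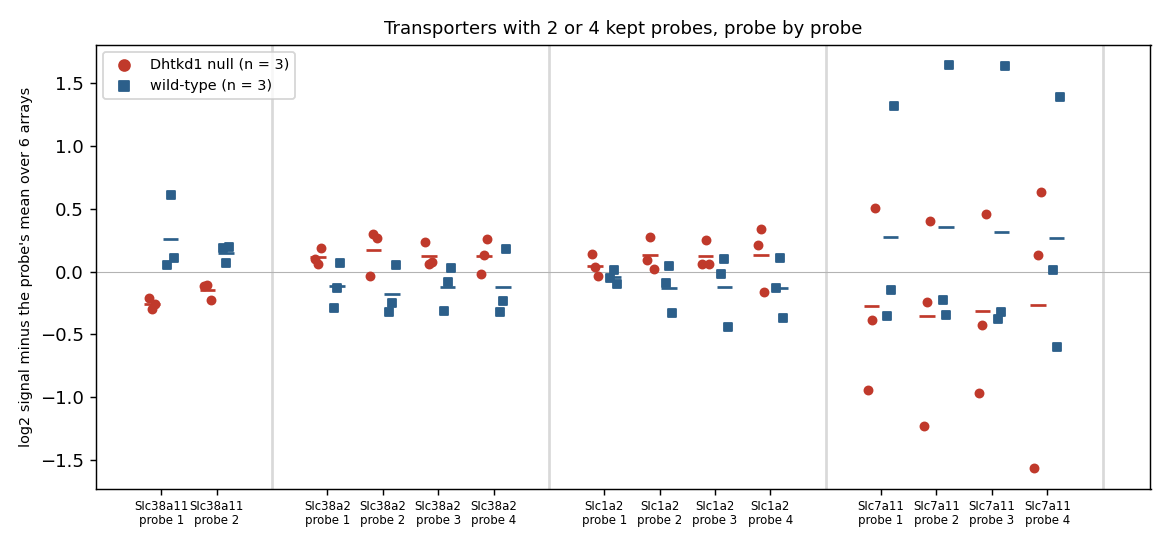
Log2 signal of each kept probe of Slc38a11, Slc38a2, Slc1a2 and Slc7a11 in each sample, relative to the mean of that probe over the 6 arrays; bars are group means (3 Dhtkd1 null, 3 wild-type). Both Slc38a11 probes separate the groups, and the 4 Slc7a11 probes spread widely in both groups with all 4 null means below the wild-type means.

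A few transporters varied among samples of one genotype far more than between genotypes. Slc6a12 gave -4.27, -1.84 and -0.76 in null samples, against -2.83, -2.92 and -0.63 in wild-type samples, a range of 12.5-fold over the 6. Slc6a20a gave -1.90, -0.43 and 0.27 in null samples, against -1.18, -1.12 and 1.12 in wild-type samples, a range of 8.08-fold. Both genes were highest or second highest in replicate 3 of either group and lowest in null replicate 1. Slc1a5 had the same low and high ends, with -1.71, -0.53 and -0.49 in null samples, against -0.69, -1.22 and 0.01 in wild-type samples.

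Markers of meningeal fibroblasts varied in a like order. All 8 were well above background on every array. Their mean, relative to each gene's mean over all arrays, was -1.63, -0.12 and 0.56 in null samples, against 0.30, -0.48 and 1.38 in wild-type samples. Wild-type replicate 3 was the highest for this mean and for Slc6a12, Slc6a20a, Slc1a5 and Slc7a11, and null replicate 1 was the lowest for all of these. Single markers departed from that order: Ogn was highest in wild-type replicate 1. The part of meningeal cells in these values was not tested.

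Slc36a2 gave -2.10, 0.14 and -0.74 in null samples, against 1.30, -1.98 and -0.82 in wild-type samples, a range of 10.6-fold. Of 5 Schwann cell markers, 4 were well above background on all arrays, and all 5 were on the lower side in null samples. Pmp2, a myelin protein of peripheral nerve, was well above background in no null sample and in all wild-type samples. Its difference was -2.64 (limma, unadjusted p 0.00972, adjusted p 0.447), with an interval of -4.37 to -0.92. The difference was -1.40 with slide as a block. Wild-type samples gave -2.87, -5.54 and -4.47. Between group means, null samples were at least 5.21-fold lower, a bound for these means and no lower limit on the effect. That bound sets each null array at its lowest signal well above background, or at the probe's own signal where higher. The mean of the 5 markers was -1.57, 0.25 and -0.07 in null samples, against 2.16, -0.85 and 0.07 in wild-type samples. Wild-type replicate 1 was highest and null replicate 1 lowest for both, and the part of Schwann cells or nerve roots was not tested.

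Slc38a5 gave 1.15, 2.72 and 2.72 in null samples, against 1.33, 1.21 and 2.01 in wild-type samples, and Slc43a1 and Slc43a3 had their highest values in null replicate 3. Endothelial markers, all 8 of them well above background on every array, had a mean of -0.21, 0.14 and 0.20 in null samples, against -0.07, -0.15 and 0.09 in wild-type samples. At an unadjusted p under 0.05 (limma), Slc2a1 (0.47, adjusted p 0.383) and Flt1 (0.30, adjusted p 0.527) were higher in null samples. Slco1a4 (-0.34, adjusted p 0.432) was lower at that threshold, and none of these genes passed after adjustment. The part of blood vessel cells was not tested.

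**Figure D5:**
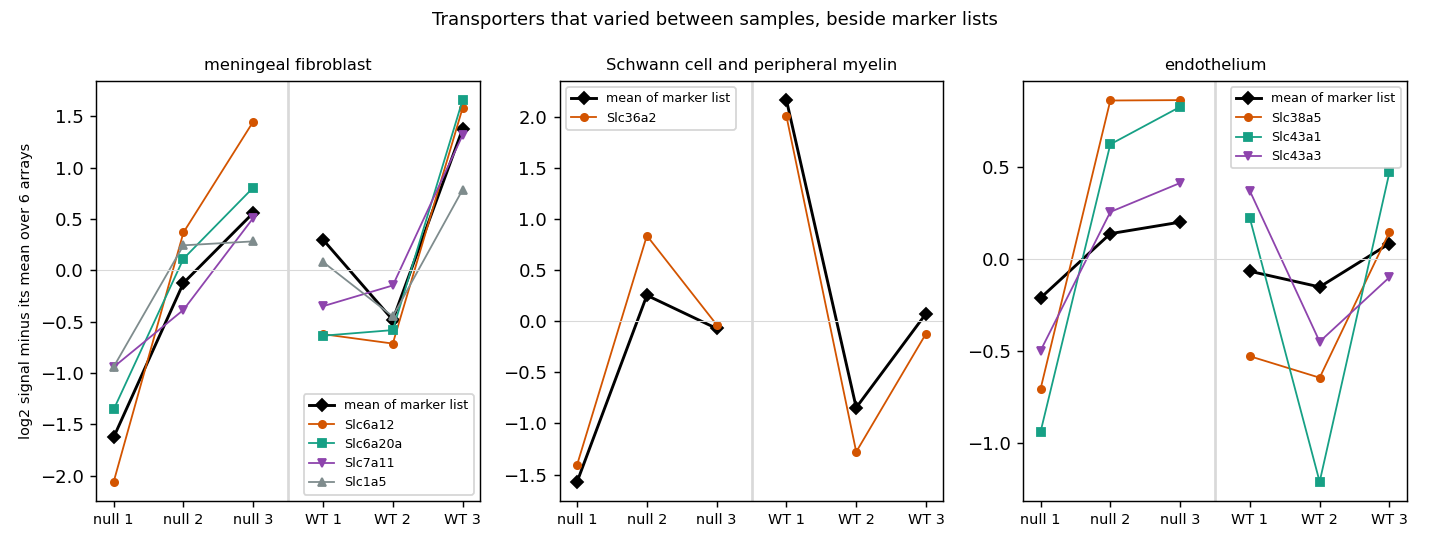
Log2 signal of 8 transporters in each sample, relative to the mean of that gene over the 6 arrays, drawn with the mean of a marker list on the same scale (black diamonds) for meningeal fibroblasts, Schwann cells and endothelium; lines join the values of one gene and mark no order of samples. Null replicate 1 is lowest in the first panel, and wild-type replicate 1 is highest in the second.

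Genes that act beside these transporters were looked at as fixed lists. All 8 vesicular transporters, which load transmitters into vesicles, were tested, with 5 on the higher and 3 on the lower side and a median difference of 0.08. None of them had an unadjusted p under 0.05. The smallest p were those of Slc17a8, a vesicular glutamate transporter, at 0.30 (limma, p 0.0655), and of Slc18a1, a vesicular monoamine transporter, at -0.25 (p 0.0764). Of 20 genes of glutamate, GABA and glycine metabolism, 19 were tested, with 8 on the higher and 11 on the lower side and a median of -0.01. Srr, which makes D-serine, was the one gene of that list at an unadjusted p under 0.05, higher by 0.18 (SE 0.07, limma, p 0.0373, adjusted p 0.530), with groups that did not overlap.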

How the data were processed

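The deposited scanner files hold the processed intensity of each spot, background-subtracted within the array and not normalized between arrays per the file headers (Agilent Feature Extraction 10.7.3.1, array design 014868, mm9). The deposited value table, in log2 units, served as an alternative, and its method is not given in the sources used here. Signals were log2 processed intensity minus each array's 75th percentile over non-control probes, after outlier spots (58 to 89 an array, of 43379) were left out and repeated spots averaged. Probes well above background on at least 3 of 6 arrays were kept (33190). Each gene took its kept probe of highest mean, which left 21438 genes. Names came from the reference table through an accession (27668 probes), symbol (5589) or synonym (471), or stayed as in the file (7446).

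Null minus wild-type was fitted with limma 3.58.1 in R 4.3.3 (lmFit, eBayes, 2-sided, no covariate), with Benjamini-Hochberg adjustment over all genes, and checked on simulated data. SE is limma's moderated standard error. No probe of the set was saturated. The number of arrays limits the precision. Every tested member but 1, which is counted in the set and not reported here on its own, is named with its difference. Values in every sample are given for members at an unadjusted p under 0.05, or with non-overlapping groups and a difference of at least 0.3, and for Slc1a1, Slc1a2, Slc1a3, Slc6a5, Slc6a9, Slc6a11, Slc7a11, Slc7a5 and Slc3a2. From the pathway lists, members at an unadjusted p under 0.05 or else the 2 of smallest p are named, and from the marker lists single genes only beside a result. The values of Slc6a4, Slc6a12, Slc6a20a, Slc1a5, Slc36a2 and Slc38a5 in every sample were added after they were seen. Members and lists were chosen with earlier results of these data known. Promoter windows are RefSeq's, which held one for 40 of the 53 genes named.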

Additional observations from a re-analysis of the deposited data

How the results depend on the processing

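No transporter passed an adjusted p of 0.05 under any of 18 alternatives, and the median difference stayed between -0.02 and 0.09. The count at an unadjusted p under 0.05 that was higher in null samples, 3 in the report, was 1 with median centring, 1 with slide as a fixed block and 1 to 6 with single samples left out. The lower count, 2 in the report, was 1 with slide as a fixed block, 1 on the first slide alone and 1 to 3 with single samples left out. The replicate numbers did not pair the samples: deviations of same-numbered samples correlated at -0.02, -0.11 and 0.33, and only replicate 3 correlated best with its own number. With a replicate block the higher count was 1 and the lower count 4. Median centring, which set the median of all genes at -0.03 against 0.02, turned Slc6a11 to -0.022 and Slc1a1 to -0.0051. Slide as a block, and the first slide alone, turned Slc6a11 to -0.28, Slc1a1 to -0.025, Slc1a3 to 0.030 and Slc7a5 to 0.017. Other genes turned as well, among them Slc1a5 to 0.31, Slc6a12 to 0.63, Slc6a20a to 0.44, Slc36a2 to 1.08 and Slc6a14 to -0.24. Slc6a4 and Slc38a5 kept their direction, at 1.39 and 0.98. With single samples left out, Slc6a11 ranged from -0.22 to 0.18, Slc6a5 from -0.16 to 0.067 and Slc1a1 from -0.035 to 0.088. Of the 5 genes at an unadjusted p under 0.05, Slc38a11 kept it in 17 alternatives, Slc6a3 in 15, Slc38a3 in 12, Slc7a4 in 10 and Slc36a3 in 6, and all 5 kept their direction in all 18. The normexp correction, the authors' value table, both other filters on dim probes and the mean of all probes turned no direction among the genes named by the rule for values in every sample, nor for Slc7a10 and Slc38a2. The cause of these shifts was not tested. Weak signal limits Slc6a3, Slc6a4, Slc7a15 and Slc36a3, and Slc7a9, Slc6a19 and Slc38a4 were well above background on 4 of 6 arrays.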
